A study of Ovis aries with 9 samples.

Results

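The products of 2 genomes meet in the mitochondrial ribosome, and both sides were examined here in the liver of Tan sheep, a fat-tailed Chinese breed. The first class holds the genes for mitochondrial ribosomal proteins, taken as the table rows named MRPL or MRPS followed by a number. The second holds the 13 protein-coding genes of the mitochondrial genome, which the table lists by locus tag and which are given here by their RefSeq symbols. Together they are 89 of 21257 genes, namely 76 mitochondrial ribosomal protein genes (49 MRPL and 27 MRPS) and 13 mitochondrially encoded genes. The rule that picks them uses names and no measured value.

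Mitochondrial ribosomal proteins are encoded in the nucleus, made in the cytosol and imported into the organelle, where they form a large and a small subunit around ribosomal RNAs of the mitochondrial genome. That ribosome translates only the few mitochondrially encoded mRNAs, and all of these code for core subunits of respiratory complexes I, III, IV and V. Mitochondrial genes are copied as long transcripts of a whole strand that are then cut into single RNAs, so differences in level between them in liver and other tissues are usually ascribed to processing and stability.

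The trial fed male sheep aged 5 months a basal diet alone (control), or the same basal diet with 1% or 2% succinate, for 60 days after a pretrial period of 10 days. The 30 sheep of the trial shared stalls in pairs (5 stalls for each diet), and liver taken at slaughter gave 3 sequenced libraries per group. Whether the libraries of a group stem from different sheep is not stated by the labels. P-values therefore measure the spread among libraries, which may be technical. The treatment label places library 3 of the 1% group at 1% while its title gives 2%, and it was kept at 1% with the alternative tested.

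Values are FPKM, a level per length of gene model scaled to the library's reads. Reads recovered from them numbered 13818648 to 18172528 per library. Summed FPKM of 8 hepatocyte markers lay between 32997 and 63146 in the 9 libraries, and that of 6 skeletal muscle markers reached at most 1.53, with CKM at 0 throughout. T and NK cell markers (8 of 8 in the table) summed to 34.1 to 49.1 FPKM in controls, 18.9 to 26.6 at 1% and 21.6 to 31.0 at 2%. Stellate cell and fibroblast markers (6 of 6) summed to 55.0 to 68.4, 57.5 to 68.4 and 48.8 to 185.8 FPKM. The part of these cells in the results below was not tested. In bulk liver, fewer cells of a type and less RNA per cell cannot be told apart. Control library 1 held the highest value of 34.0% of all tested genes.

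The classes differed in level by orders of magnitude. The 75 mitochondrial ribosomal protein genes that passed the filter on low values (at least 1 FPKM in at least 3 libraries) had a median level of 15.1 FPKM over the 9 libraries, and the 13 mitochondrially encoded genes one of 2184 FPKM. Of the 75, 16 averaged under 10 FPKM, 50 between 10 and 30, and 9 at 30 or more. Within a library, the median log2(FPKM + 1) of the mitochondrially encoded genes exceeded that of the ribosomal protein genes by 6.94 ± 0.066 in controls, 7.25 ± 0.54 at 1% and 7.17 ± 0.37 at 2% (SD, n = 3). The 3 controls lay close together, and the range of each dosed group was wider and included that of the controls. In 1% library 3, whose title gives 2%, the difference was 7.87, beside 7.01 and 6.87 in 1% libraries 1 and 2. With that library left out or placed at 2%, the 1% mean was 6.94.

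Summed over each class, the mitochondrially encoded genes stood at 46798, 35942 and 40618 FPKM in the 3 controls, at 48719, 30715 and 62762 at 1%, and at 40817, 66767 and 49317 at 2%. The mitochondrial ribosomal protein genes summed to 1584, 1212 and 1392 FPKM in controls, 1488, 1241 and 1305 at 1%, and 1267, 1474 and 1204 at 2%. The groups overlapped in both sums. Mitochondrially encoded genes took from 3.44% of reads (95% Wilson interval 3.43 to 3.44, 1% library 2) to 7.64% (7.62 to 7.65, 2% library 2), and ribosomal protein genes 0.128% (0.126 to 0.130, control library 2) to 0.166% (0.164 to 0.168, control library 1). These intervals cover counting error only.

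Divided by one another, which removes the scaling of the library, the sums gave 29.5, 29.6 and 29.2 mitochondrially encoded per ribosomal protein FPKM in the controls. The ratio was 32.8, 24.8 and 48.1 at 1%, and 32.2, 45.3 and 41.0 at 2%. All 2% libraries lay above all controls, and the 1% libraries lay on both sides. Complex IV subunit COX1 made up the greatest part of the numerator, as described below. As a summary over members this ratio was not tested.

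**Figure D1:**
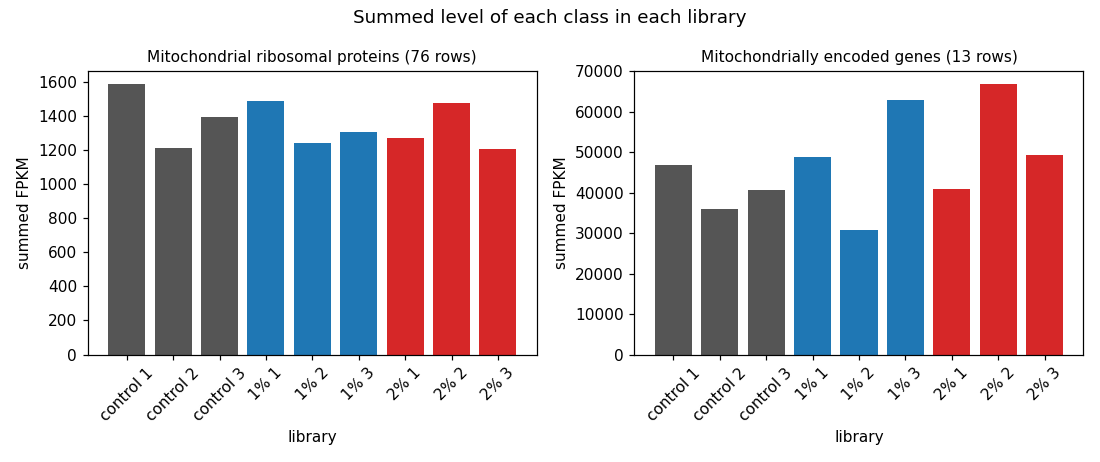
Summed FPKM (vertical axes, from 0) of the mitochondrial ribosomal protein rows (left) and of the mitochondrially encoded rows (right) in each of 9 libraries (horizontal axes; grey control, blue 1%, red 2% succinate). The left sums stay between 1204 and 1584 FPKM, while the right sums run from 30715 to 66767.

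Among the mitochondrially encoded genes, COX1, the catalytic core of cytochrome c oxidase, had the highest level. It stood at 16823, 11657 and 14627 FPKM in controls, at 16573, 11093 and 20890 at 1%, and at 18736, 26011 and 22584 at 2%. Every 2% library was above every control, while the 1% libraries spread over both. The fitted log2 change at 2% was 0.65 (SE 0.322, adjusted p = 0.95, limma) and did not pass. COX3, a further core subunit of that complex, averaged 6946 ± 1004, 8063 ± 3072 and 7479 ± 2777 FPKM in control, 1% and 2% libraries (SD, n = 3). COX2, which carries the binuclear copper centre, averaged 3995 ± 400.15, 4981 ± 1606 and 4662 ± 1347 FPKM. Both overlapped between all groups, and the largest fitted log2 change of either was 0.26, for COX2 at 1%.

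ATP6, the membrane subunit of ATP synthase that forms the proton path, averaged 4510 ± 1056, 5529 ± 1930 and 5548 ± 1508 FPKM. CYTB, the one mitochondrially encoded subunit of complex III, averaged 1848 ± 330.9, 2417 ± 840.3 and 2287 ± 679.3 FPKM. ND4 and ND2, membrane subunits of the proton-pumping arm of complex I, averaged 3417 ± 464.4 and 3253 ± 47.9 FPKM in controls, 4170 ± 1632 and 3461 ± 1530 at 1%, and 4921 ± 997.1 and 2866 ± 1196 at 2%. These 4 genes overlapped between the groups and did not pass in any comparison.

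ND1, a complex I subunit at the junction of the membrane arm and the quinone site, was split within the 2% group. It stood at 1667, 1528 and 1849 FPKM in controls and at 2100, 1066 and 2235 at 1%. In the 2% group it was at 285.9 FPKM in library 1, 2556 in library 2 and 314.2 in library 3. Libraries 1 and 3 at 2% were thus far under the other 7 libraries, and library 2 was the highest of all 9. Their recovered ND1 reads, 3794 and 4667 against 15430 to 36476 elsewhere, leave little room for counting error.

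The fitted log2 change of ND1 at 2% was -1.45 (SE 0.725, adjusted p = 0.95, limma), which did not pass. Without 2% library 2 it was -2.48 (SE 0.346, adjusted p = 0.107), and without library 1 or 3 it was -0.90 or -0.97. Against 1% it was -1.48 (SE 0.725, adjusted p = 0.678), and -2.51 without 2% library 2 (adjusted p = 0.152). ND2, the next coding gene along the genome, stood at 1741, 4123 and 2734 FPKM in the 2% libraries. ND1 was 16.4% and 11.5% of the ND2 level in 2% libraries 1 and 3, against 46.1% to 62.0% in the other 7. Libraries 1 and 3 at 2% were also the pair of libraries with the most similar counts over all genes (chi-square per degree of freedom 42.4, the smallest of all pairs), and no library was a copy of another.

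ND3, a small complex I subunit that carries a loop whose exposure changes as the enzyme turns inactive, had the smallest p of this class in both comparisons with control. It stood at 539.5, 741.8 and 774.3 FPKM in controls, at 433.7, 311.8 and 351.4 at 1%, and at 245.4, 559.9 and 213.9 at 2%. All 1% libraries were below all controls, and at 2% library 2 overlapped with control library 1. The log2 change was -0.90 at 1% (SE 0.352, unadjusted p = 0.0294, adjusted p = 0.31, limma) and -1.13 at 2% (SE 0.352, unadjusted p = 0.00979, adjusted p = 0.886). Neither passed after adjustment over 11944 genes. Over all settings tried, the change ranged from -1.06 to -0.74 at 1% and from -1.56 to -0.87 at 2%.

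ND4L, which is carried on one mRNA with ND4 and overlaps it, stood at 362.2, 402.7 and 429.7 FPKM in controls, 519.3, 269.3 and 436.0 at 1%, and 632.6, 602.4 and 820.2 at 2%. Every 2% library was above every control and every 1% library. The log2 change at 2% was 0.77 against control (SE 0.266, unadjusted p = 0.0166, adjusted p = 0.903, limma) and 0.78 against 1% (SE 0.266, unadjusted p = 0.0152, adjusted p = 0.581), and neither passed. Moving 1% library 3 to the 2% group gave 0.61 against control.

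**Figure D2:**
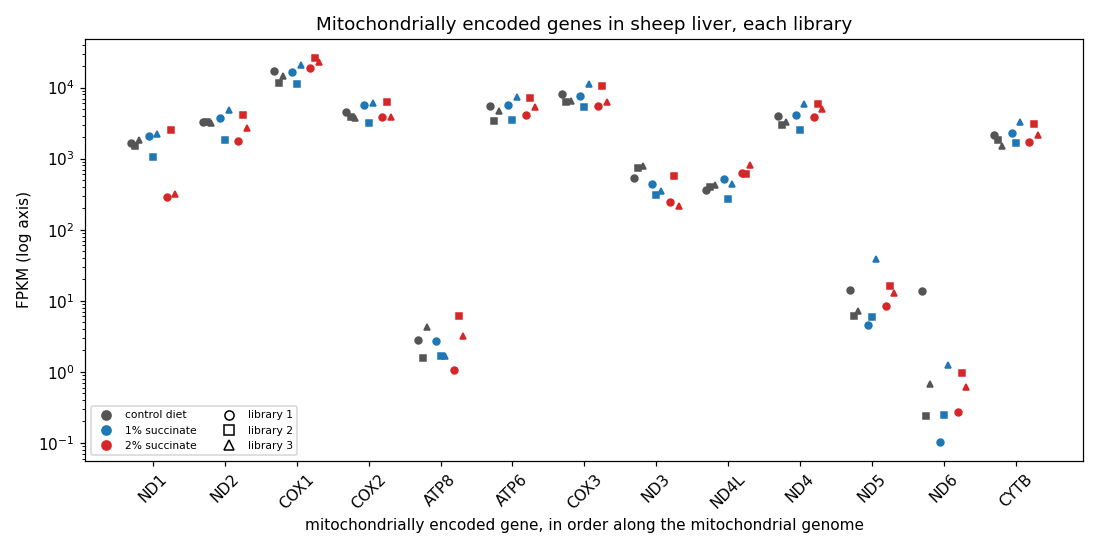
FPKM (vertical log axis) of the 13 mitochondrially encoded genes, in order along the mitochondrial genome (horizontal axis), with 1 point per library (colour, diet; shape, library number). ND1 at 2% shows libraries 1 and 3 at 285.9 and 314.2 FPKM beside library 2 at 2556, and ATP8, ND5 and ND6 lie far below the other 10 genes.

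A few mitochondrially encoded genes were near the bottom of the range. ATP8, a short ATP synthase subunit read from the same mRNA as ATP6, stood at 1.07 to 6.12 FPKM on 3 to 17 reads per library. ND5, a large membrane subunit of complex I, stood at 4.62 to 16.0 FPKM in 8 libraries and at 38.0 in 1% library 3. ND6, a complex I subunit and the one of the 13 encoded on the opposite strand, was at 13.8 FPKM in control library 1 (103 reads) and at 0.104 to 1.26 FPKM in the other 8 (1 to 10 reads). It did not pass the filter. ATP8, ND4L, ND5 and ND6 overlap neighbours on the genome, and how reads of overlapping genes or of the strands were counted is not given in the sources used here, so their levels are uncertain.

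Expressed as shares of the summed FPKM of the 13 genes, which again removes the scaling of the library, the makeup differed between the 2% group and the controls. COX1 held 34.8 ± 2.05% in controls, 34.5 ± 1.47% at 1% and 43.6 ± 3.98% at 2% (SD, n = 3), with the 2% libraries at 45.9%, 39.0% and 45.8% above all 6 others. ND3 held 1.15%, 2.06% and 1.91% in controls, 0.890%, 1.02% and 0.560% at 1%, and 0.601%, 0.839% and 0.434% at 2%. All 6 libraries with succinate were below all 3 controls. ND2 held 8.01 ± 1.11% in controls, 7.09 ± 1.01% at 1% and 5.33 ± 0.973% at 2%, where all libraries were below all controls. ND4 held 8.31 ± 0.11%, 8.69 ± 0.503% and 9.49 ± 0.725%, with all 2% libraries above all controls. The other 9 genes overlapped between 2% and control. In 1% library 3, whose title gives 2%, COX1 held 33.3% and ND2 7.73%, both within the range of the controls, so that counting it at 2% ends these separations. ND4 at 9.24% and ND3 at 0.560% in that library lay outside the range of the controls on the same side as the 2% libraries. With 3 libraries against 3, an exact permutation test cannot go below p = 0.1, so these shares are given as a description. A share of a fixed total falls where another rises.

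**Figure D3:**
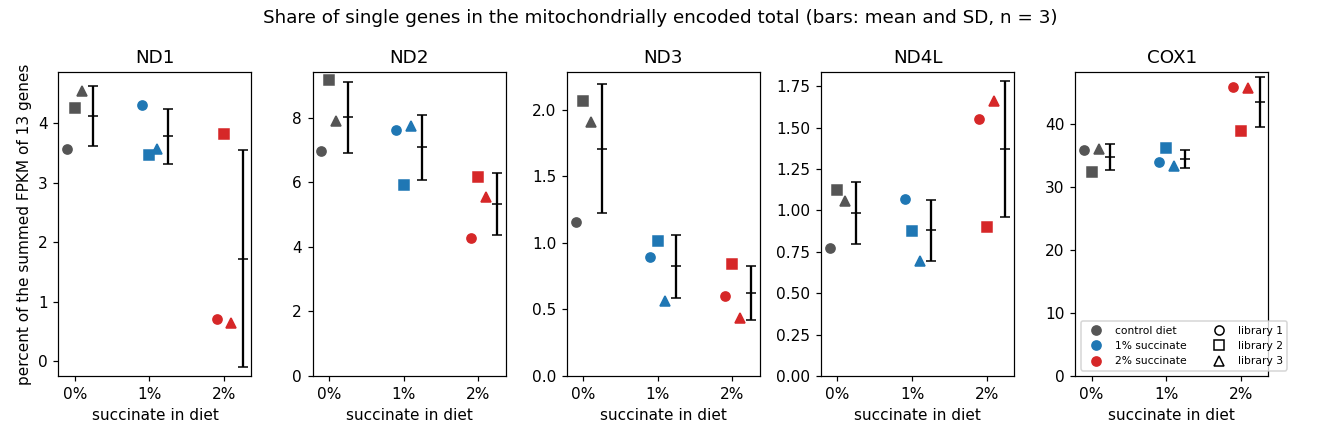
Share of ND1, ND2, ND3, ND4L and COX1 in the summed FPKM of the 13 mitochondrially encoded genes (vertical axes, percent) by succinate in the diet (horizontal axes); points are libraries, bars the mean and SD (n = 3), which for ND1 at 2% reaches below 0. COX1 at 2% lies at 39.0% to 45.9%, and ND3 lies lower in every succinate library than in any control.

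Among the mitochondrial ribosomal protein genes, MRPL23, which lies by the exit of the peptide tunnel, had the highest level at 74.6 to 166.3 FPKM. MRPL41 (26.8 to 55.9 FPKM), MRPL49 (31.9 to 50.7), the large subunit protein MRPL16 (28.6 to 46.4) and the small subunit protein MRPS23 (29.3 to 40.2) followed. At the other end, MRPL38 stood at 1.502 to 5.25 FPKM on 29 to 103 reads and MRPL36, which holds a zinc ion, at 1.07 to 3.83 FPKM on 13 to 54 reads. MRPL37 is listed at 0 in all 9 libraries and was not tested. Large and small subunit names had like medians, 15.5 FPKM over 48 tested genes and 14.4 over 27.

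The ribosomal protein genes varied less among libraries than the mitochondrially encoded ones. The median coefficient of variation over the 9 libraries was 18.3% for the tested ribosomal protein genes, 31.5% for the 13 mitochondrially encoded genes and 22.7% for all tested genes. The lowest values were 7.47% for MRPS33, 8.64% for MRPS23 and 8.66% for MRPS10, and the highest 42.1% for MRPL55, 41.8% for MRPL38 and 36.3% for MRPL28. Those extremes were chosen after their values were seen. Control library 1 held the highest value of 26 of the 75 tested members (34.0% of all tested genes) and the lowest of none (1.74%).

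Several members hold roles beyond a plain structural one. MRPL12, a stalk protein that in human cells also binds the mitochondrial RNA polymerase, averaged 18.7 ± 5.16, 18.1 ± 2.06 and 16.2 ± 2.39 FPKM in control, 1% and 2% libraries (SD, n = 3). MRPS12, the protein of the decoding centre, averaged 24.4 ± 5.36, 21.0 ± 4.63 and 23.1 ± 9.97 FPKM. The MRPS18 variants occupy different places, MRPS18B and MRPS18C in the small subunit and MRPS18A in the large one. MRPS18A averaged 6.18 ± 1.52, 6.52 ± 0.885 and 6.08 ± 1.74 FPKM, and MRPS18C 14.6 ± 1.39, 12.4 ± 3.97 and 16.1 ± 1.74. Both overlapped between each dose and control. MRPS36, despite its name, belongs to the oxoglutarate dehydrogenase complex, and averaged 9.95 ± 0.427, 8.42 ± 2.63 and 8.82 ± 2.10 FPKM.

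The first comparison set 1% succinate against control. With limma, 0 of 87 tested members passed, against 0.0167% of all tested genes, and a voom fit to recovered reads called 0 as well. Before adjustment 6 members had a p under 0.05, a smaller share than the 14.9% of all tested genes (3 with voom). Of these, 2 were higher (2.11% of all tested genes) and 4 lower (12.8%). The groups did not overlap in 8 members, against 17.9% of all tested genes, 4 of them higher (2.28%) and 4 lower (15.6%). Of the 75 ribosomal protein genes 43 had a fitted change below 0, against 68.6% of all tested genes, with a median log2 change of -0.021 beside -0.139 for all tested genes, a difference of 0.118. Quantile and median-ratio scaling brought the median of all genes to 0.01 and -0.01 and turned that of the ribosomal protein genes to 0.07 (44 above 0, 31 below) and 0.13 (46 above, 29 below). It was also above 0 without control library 1 (0.06) and without 1% library 2 (0.01), and was -0.10 without control library 2 or 1% library 1 and -0.08 without control library 3. The 12 tested mitochondrially encoded genes had 8 changes above 0, against 31.4% of all tested genes. Their median was 0.15, but -0.07 with quantile scaling and 0.31 with median-ratio scaling. It was -0.11 with 1% library 3 placed at 2% or left out, 0.02 without control library 2, 0.27 without control library 1 and 0.41 without 1% library 2.

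MRPS18B, one of the small subunit variants named above, had the smallest p at 1%. It stood at 17.3, 12.1 and 10.4 FPKM in controls, 18.7, 23.4 and 23.6 at 1%, and 15.6, 18.8 and 13.6 at 2%. All 1% libraries were above all controls. The log2 change was 0.71 (SE 0.209, unadjusted p = 0.00752, adjusted p = 0.261, limma) and did not pass.

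MRPL49, a large subunit protein without a bacterial counterpart, stood at 41.6, 31.9 and 37.3 FPKM in controls and 49.7, 44.2 and 50.7 at 1%, again without overlap (log2 change 0.38, adjusted p = 0.323). MRPS25, of the small subunit, stood at 12.3, 10.5 and 11.3 FPKM in controls, 10.3, 6.75 and 8.48 at 1%, and 11.2, 11.002 and 11.4 at 2%. MRPS21, a small subunit protein with a bacterial counterpart, stood at 11.5, 10.2 and 10.9 FPKM in controls, 7.46, 8.89 and 8.70 at 1%, and 10.2, 13.4 and 14.1 at 2%. For both genes every 1% library was below every control, with log2 changes of -0.40 and -0.35 (adjusted p = 0.315 and 0.336). MRPS30, which sits in the large subunit despite its name, averaged 10.9 ± 1.80 FPKM in controls, 8.13 ± 1.49 at 1% and 8.85 ± 0.738 at 2%. It overlapped with the controls at 1% but not at 2%, where all libraries were lower.

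**Figure D4:**
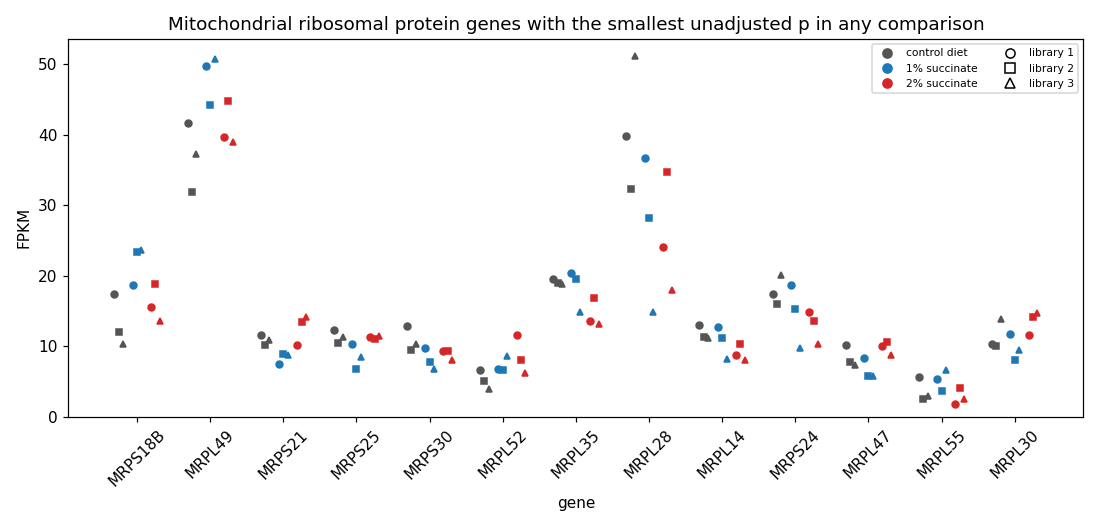
FPKM (vertical axis, from 0) of 13 mitochondrial ribosomal protein genes (horizontal axis), 1 point per library (colour for diet, shape for library number). The genes were picked by rank of unadjusted p within each comparison, not over all comparisons together. Some genes left out, such as MRPL9 at 1%, therefore had a smaller p than some shown, such as MRPS24 at 2%. MRPS18B at 1% (18.7 to 23.6 FPKM) lies above its controls (10.4 to 17.3), and MRPS21 and MRPS25 are lowest at 1%.

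The comparison of 2% succinate with control gave 0 of 87 members past the adjusted threshold with limma, against 0.0502% of all tested genes, and 0 with voom. Before adjustment 4 had a p under 0.05, a share close to the 5.18% of all tested genes (2 with voom). Of these, ND4L and MRPL52 were higher (1.06% of all tested genes), and ND3 and MRPL35 lower (4.12%). The groups did not overlap in 11 members, against 10.6% of all tested genes, 3 of them higher (2.6%) and 8 lower (8.02%). Of the 75 ribosomal protein genes 47 had a change below 0, against 60.7% of all tested genes, with a median of -0.031 beside -0.055. Quantile, median-ratio and nuclear scaling turned that median to 0.04, 0.03 and 0.01. Leaving out control library 1 or 2% library 1 turned it to 0.08 or 0.02, and it was -0.13 without control library 2, -0.08 without 2% library 2, -0.05 without control library 3 and -0.01 without 2% library 3. The mitochondrially encoded genes had 9 of 12 changes above 0, against 39.3% of all tested genes, and a median of 0.24. That median was 0.01 without 2% library 2, 0.13 without control library 2 and 0.48 without 2% library 1.

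MRPL52, a large subunit protein without a bacterial counterpart, stood at 6.56, 5.12 and 3.99 FPKM in controls, 6.75, 6.57 and 8.64 at 1%, and 11.7, 8.04 and 6.25 at 2%. The 1% libraries were all above the controls, but only just, with 6.568 FPKM in 1% library 2 beside 6.562 in control library 1. MRPL52 had only 24 to 70 reads per library. The 2% group overlapped with control library 1. Its log2 change at 2% was 0.62 (SE 0.231, unadjusted p = 0.0247, adjusted p = 0.909, limma).

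MRPL35, a large subunit protein with a bacterial counterpart, stood at 19.5, 18.9 and 18.8 FPKM in controls and 13.6, 16.8 and 13.1 at 2%, without overlap (log2 change -0.38, SE 0.165, adjusted p = 0.95). MRPL14, at the interface of the subunits, averaged 11.8 ± 1.07 FPKM in controls and 9.03 ± 1.14 at 2%, and MRPS24, by the mRNA entry, 17.8 ± 2.11 and 12.9 ± 2.35. Both groups of libraries were separate in each gene. MRPL28 stood at 39.8, 32.3 and 51.1 FPKM in controls, 36.7, 28.1 and 14.9 at 1%, and 24.0, 34.7 and 18.0 at 2%, and overlapped.

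Set against each other, 2% and 1% gave 0 of 87 members past the threshold with limma and with voom, as for all tested genes (0%). Before adjustment 6 members had a p under 0.05, against 7.48% of all tested genes (4 with voom). Of these, 5 were higher at 2% (6.2% of all tested genes) and 1 lower (1.29%). The groups did not overlap in 7 members, against 14.3%, with 7 higher at 2% (11% of all tested genes) and 0 lower (3.33%). Of the ribosomal protein genes 44 of 75 had a change below 0 (38.2% of all tested genes) and 31 above (61.8%), and their median was -0.032 beside 0.071. Quantile scaling left 45 below and 30 above (median -0.07), and median-ratio scaling 51 below and 24 above (-0.13). The median of all tested genes was -0.01 with either. With scaling to genes that are not mitochondrially encoded 36 were below and 39 above (median 0.002). The median was also above 0 without 1% library 1 (0.05) and without 2% library 3 (0.02), and was -0.11 without 2% library 2, -0.08 without 1% library 2, -0.02 without 1% library 3 and near 0 without 2% library 1. The mitochondrially encoded genes had 6 of 12 changes on either side of 0, a split that moved with the scaling and with single libraries. Quantile scaling gave 8 above and 4 below (median 0.11), and median-ratio scaling 5 above and 7 below (-0.11). With 1% library 3 placed at 2%, 10 were above and 2 below (0.35). There were 10 above and 2 below without 1% library 3 (median 0.23) or 2% library 1 (0.18), and 9 above without 2% library 3 (0.04). Only 3 were above and 9 below without 1% library 2 (-0.28) or 2% library 2 (-0.23).

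MRPS21, with the values above, had the smallest p, with a log2 change of 0.53 from 1% to 2% (SE 0.156, unadjusted p = 0.00736, adjusted p = 0.552, limma) and no overlap. MRPL47, a large subunit protein, stood at 8.38, 5.73 and 5.73 FPKM at 1% and 9.99, 10.7 and 8.76 at 2%, also without overlap (log2 change 0.52, SE 0.183, adjusted p = 0.609). MRPL55 stood at 5.38, 3.62 and 6.70 FPKM at 1% and 1.88, 4.04 and 2.45 at 2%, and MRPL30 at 11.7, 8.03 and 9.43 and at 11.6, 14.1 and 14.7. Both overlapped. MRPS25, with the values above, did not overlap between the doses (log2 change 0.38, adjusted p = 0.65).

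**Figure D5:**
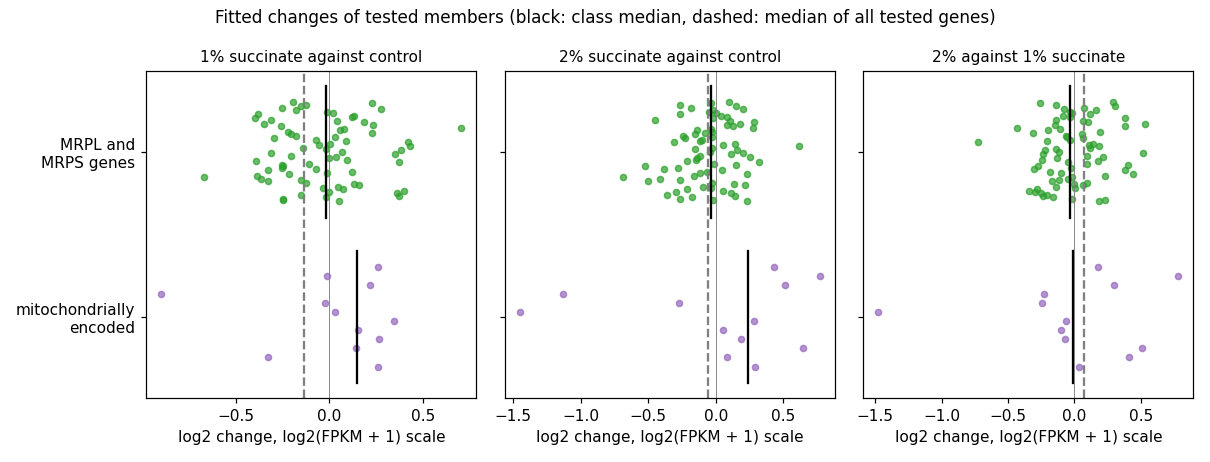
Fitted log2 changes (horizontal axes, log2(FPKM + 1) scale) of the 75 tested mitochondrial ribosomal protein genes and the 12 tested mitochondrially encoded genes in the 3 comparisons, 1 point per gene; black bars are class medians and dashed lines the median of all tested genes. In the first comparison the ribosomal protein median is -0.021 and that of all tested genes -0.139.

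Grouped by kind, members listed as having a bacterial counterpart (43 tested) had a median log2 change of -0.12 at 1% and -0.07 at 2%. These medians lay near those of all tested genes, -0.139 and -0.055. The other 32 members had medians of 0.01 and -0.02. How the members were listed is a choice: MRPS18B and MRPS18C were counted among the 43, and MRPS18A and MRPS36 among the 32. Of all tested genes, 68.6% had a change below 0 at 1% and 60.7% at 2%. Large subunit names had 29 of 48 changes below 0 at 1% and 31 at 2%, and small subunit names 14 and 16 of 27. Proteins of the ribosome with other names (6 tested, of which MRPL58 is also a member) had 3 and 4 below 0. Of these PTCD3, an RNA-binding protein of the small subunit, averaged 11.6 ± 1.94 FPKM in controls, 14.1 ± 0.707 at 1% and 12.8 ± 0.747 at 2%. CHCHD1, also of the small subunit, averaged 13.03 ± 1.67, 14.5 ± 1.81 and 8.99 ± 1.39 FPKM (log2 change -0.49 at 2%, adjusted p = 0.903, limma). GADD45GIP1 had a change of -0.21 at 1%, and AURKAIP1 one of -0.20 at 2%.

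The nuclear genes that copy, process and translate the mitochondrial genome gave 0 calls after adjustment with limma in the comparisons with control, and voom called 0 of all genes at 1%. Before adjustment each list held 0 to 4 genes with a p under 0.05 at 1%, where 14.9% of all tested genes had one, and 0 to 1 at 2%, where 5.18% had. The counts below control that follow are to be read beside the 68.6% of all tested genes at 1% and the 60.7% at 2% that had a change below 0. TFB1M, TOP1MT, PPARGC1B and NRF1 did not pass the filter. In mitochondrial transcription 3 of 7 tested genes were below control at either dose. Over the 7, log2 changes at 1% ran from -0.48 to 0.67, with a median of 0.05. From 1% to 2% they ran from -0.997 to 0.37. POLRMT, the mitochondrial RNA polymerase, averaged 13.1 ± 1.10 FPKM in controls, 9.54 ± 0.842 at 1% and 11.6 ± 1.95 at 2% (log2 change -0.42 at 1%, adjusted p = 0.294), and MTERF1, a terminator protein, had a log2 change of -0.48 at 1% (adjusted p = 0.278). MTERF2 and MTERF3, related factors, had changes of 0.24 each at 2%. In DNA maintenance 5 of 12 were below control at 1% and 6 at 2%, with log2 changes at 1% of -0.50 for the polymerase POLG and 0.36 for SSBP1, the single-strand binding protein.

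In RNA processing and stability 9 of 16 were below control at 1% and 11 at 2%, led by FASTKD3 (-0.34 and -0.40), with FASTKD1 at -0.23 at 1% and FASTKD2 at -0.23 at 2%. Ribosome assembly factors were below control in 14 of 16 at 1% (median -0.21 beside -0.139 for all tested genes) and 12 at 2%. DDX28, a helicase of large subunit assembly, averaged 5.08 ± 0.82 FPKM in controls, 3.06 ± 0.515 at 1% and 4.04 ± 0.266 at 2% (log2 change -0.58 at 1%, adjusted p = 0.253). YBEY had a change of -0.58 at 1%, and the GTPase MTG1 one of -0.33 at 2%. Translation factors were below control in 10 of 13 and 7 of 13, with the release factor MTRF1L at -0.35 and MTRES1 at -0.56 at 1%, and the elongation factor GFM1 at -0.16 and the initiation factor MTIF2 at 0.17 at 2%. Aminoacyl-tRNA synthetases and amidotransferase subunits were below in 16 of 21 and 12 of 21, with the amidotransferase subunit GATB at -0.52 at 1% and the synthetase IARS2 at -0.27 at 2%.

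Nuclear partners of the mitochondrially encoded subunits in the respiratory complexes, with subunits of complex II, were below control in 17 of 17 at 1% (68.6% of all tested genes; median -0.23) and in 15 of 17 at 2% (60.7%; median -0.22). With 1% library 3 placed at 2% or left out, 13 of 17 were below at 1% (median -0.13), and without 1% library 1 the median was -0.38. At 2% the median was -0.27 with 1% library 3 placed there, with 17 of 17 below. It was -0.10 without 2% library 3, with 13 of 17 below. Quantile scaling left 14 and 11 of 17 below, and median-ratio scaling 13 and 14. NDUFS8 of complex I had a log2 change of -0.45 at 1%, and NDUFV1 of the same complex one of -0.45 at 2%, and neither passed. Of the activators, PPARGC1A, the coactivator of mitochondrial biogenesis, averaged 4.27 ± 0.826 FPKM in controls, 1.80 ± 1.19 at 1% and 2.80 ± 0.341 at 2% (log2 change -0.99 at 1%, adjusted p = 0.261). GABPB1, a subunit of the factor that binds many promoters of mitochondrial protein genes, had a change of -0.46 at 1%, and the nuclear receptor ESRRA one of -0.54 at 2%. In this list 5 of 7 were below control at 1% and 4 at 2%.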

How the data were processed

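The authors deposited 1 table of FPKM values per gene and library, per the file headers. How reads were aligned and counted is not given in the sources used here. GRCm38 and mm10, which are mouse builds, appear in the submitters' processing notes. Of the 21257 gene names, however, 20172 are symbols, synonyms or locus tags of sheep RefSeq. Gene model lengths derived from the values lay within 0.1% of those of sheep RefSeq (assembly ARS-UI_Ramb_v3.0, used for names and gene order) for 13 of 13 mitochondrial genes. Whole reads were recovered as common multiples (tolerance 0.01) for 17402 of 17402 genes above 0 in at least 2 libraries.

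Tests were made with limma 3.58.1 (R 4.3.3) after a log2(FPKM + 1) transform, with an intensity trend, for 11944 genes with at least 1 FPKM in at least 3 libraries. A log2 change on this scale understates that of low genes. All 9 libraries entered 1 fit. P-values are two-sided, adjusted by the Benjamini-Hochberg method over all tested genes (threshold 0.05). The fit was tested on simulated data with the same dispersion for all genes and changes only in genes with many reads. That test does not cover members with few reads. Members, lists and tests were chosen with earlier results of these data known. Named were all 13 mitochondrially encoded genes and, of the ribosomal protein genes, the 5 with the smallest p per comparison, the 5 highest, the 3 lowest and those with special roles, plus the 2 with the smallest p per pathway list in each comparison with control, of which some are not reported here. No sequences are shown.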

Additional observations from a re-analysis of the deposited data

How the results depend on the processing

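With 19 alternatives in each of 3 comparisons, 0 members passed, as in the values reported. Over all genes, the 2 calls at 1% became 0 with a pseudocount of 0.1, without a filter, with a mean FPKM of at least 5, after quantile or median-ratio scaling, in the 2 groups alone, with 1% library 3 placed at 2% and with voom, and ranged from 0 to 4 when 1 library was left out. The 6 calls at 2% became 3 without a filter and with voom, 1 with a mean FPKM of at least 5 or 1% library 3 placed at 2%, and 0 in the 2 groups alone, with 0 to 7 when 1 library was left out. Between doses the count was 0 to 1 when 1 library was left out. The samples share only a replicate number (correlations of deviations within a number -0.295 to 0.278, 2 of 9 over 0.1). With that number as a replicate block the counts were 0 at 1%, 1 at 2% and 0 between doses. The changes of ND1 and COX1 at 1% (0.03 and 0.14) turned to -0.088 and -0.16 after quantile scaling and to -0.16 and -0.067 with 1% library 3 placed at 2%, and ranged from -0.16 to 0.37 and from -0.067 to 0.39 when 1 library was left out. The log2 difference between the classes in controls was 7.02 with a pseudocount of 0.1, beside 6.94 with 1. A smaller pseudocount lowers the log2 values of low genes more than those of high ones. Depth limits the members with few reads, among them ATP8, ND6, MRPL36, MRPL33, MRPL52, MRPL55 and MRPL38.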
